A study of Mus musculus with 8 samples.

Results

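The genes of fatty acid synthesis and of cholesterol synthesis were followed in RNA-seq data of JunB cKO and wild type mice. They comprise 34 genes named by symbol, of which 16 belong to the fatty acid arm and 18 to the sterol arm. Their rows were looked up in 3 tables, 1 for unperturbed samples, 1 for hair plucking and 1 for wounds, which hold 26457, 47990 and 46726 gene loci. All 34 genes had a row under their own symbol in the unperturbed table and 32 had one in each of the other two, where Mvd and Fdps were without one. The coordinates of 8, 15 and 14 of these rows, respectively, are shared with rows of other genes.

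JunB is a subunit of the transcription factor AP-1, and the study asked how its loss in the epidermis alters the skin and its sebaceous glands. JunB cKO mice carried floxed JunB alleles and a Cre recombinase under the K14 promoter, which is active in basal epidermal cells, so that dermis, fat, muscle and blood cells of the skin were not targeted. Wild type mice were JunB +/+ and both genotypes were C57BL/6. The unperturbed pair came from 60-days-old mice, and the labels name its tissue as keratinocyte where the paper names dorsal skin. For hair plucking, back skin was depilated at postnatal day 54 and taken 4 days later. The labels call these samples skin biopsies in the title and keratinocyte in the tissue field. Wound tissue was taken 30 days after wounding, and the age of those mice at wounding is not given in the sources used here. Each library was made from the joined RNA of 3 samples of its group. Of 8 libraries, 1 per genotype was unperturbed, 1 per genotype came after hair plucking and 2 per genotype came from wounds. Each table holds 1 FPKM value per genotype and gene, also for wounds. No value below therefore has a replicate check, and no test was possible.

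Fatty acids are built in the cytosol from acetyl-CoA, which is carboxylated to malonyl-CoA and joined into palmitate, then elongated, desaturated and attached to glycerol. Cholesterol is built from the same acetyl-CoA by way of mevalonate, isoprenoid units, squalene and lanosterol. SREBP1, encoded by Srebf1, mainly drives the first pathway and SREBP2, encoded by Srebf2, the second, and INSIG proteins hold both in the endoplasmic reticulum when sterols are plentiful. In skin, both pathways feed the permeability barrier of the epidermis and the sebum that sebocytes release.

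Promoters of 29 members were found in a RefSeq promoter table of GRCm38.p6, 15 of the fatty acid arm and 14 of the sterol arm. They were searched on both strands, from 250 bases before to 50 bases after the most upstream start, for 4 short motifs. CCAAT, the core of the box bound by NF-Y, was found in 8 of 15 fatty acid promoters (53.3%), in 13 of 14 sterol promoters (92.9%) and in 38.0% of all 27025 genes with a promoter entry. The GC box GGGCGG was found in 7 of 15 (46.7%), 13 of 14 (92.9%) and 35.9%, respectively. TCACNCCAC, a form of the sterol regulatory element bound by SREBP, was found in 1 sterol promoter, that of Hmgcs1, in 0 fatty acid promoters and in 1.22% of all. TGACTCA, the site bound by AP-1, was found in 1 fatty acid promoter, that of Me1, in 0 sterol promoters and in 5.17% of all. The upstream 250 bases of 3 promoters are shown because Fasn had the highest ratio of JunB cKO over wild type in wounds, Dhcr7 had the largest ratio after hair plucking among members with a mean FPKM of at least 10 and was the sterol promoter without CCAAT, and Hmgcs1 lay below wild type in all 3 tables and held 3 of the motifs. They are written 5′ to 3′ on the strand of the gene, and capitals mark matches of any of the 4 motifs on either strand. In Fasn, 2 of the 3 CCAAT matches overlap on opposite strands.
Fasn, chr11:120824548-120824797, minus strand: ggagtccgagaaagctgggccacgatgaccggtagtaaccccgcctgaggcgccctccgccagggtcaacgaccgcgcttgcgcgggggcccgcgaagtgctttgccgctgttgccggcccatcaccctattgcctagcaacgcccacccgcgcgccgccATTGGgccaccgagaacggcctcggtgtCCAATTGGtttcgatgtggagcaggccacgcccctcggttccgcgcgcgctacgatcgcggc
Hmgcs1, chr13:119690101-119690350, plus strand: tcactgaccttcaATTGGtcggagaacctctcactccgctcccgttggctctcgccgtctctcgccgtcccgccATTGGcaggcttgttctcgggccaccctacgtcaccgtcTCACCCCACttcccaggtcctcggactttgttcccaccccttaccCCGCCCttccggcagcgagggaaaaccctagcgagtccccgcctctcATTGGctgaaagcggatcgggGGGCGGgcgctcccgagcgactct
Dhcr7, chr7:143822917-143823166, plus strand: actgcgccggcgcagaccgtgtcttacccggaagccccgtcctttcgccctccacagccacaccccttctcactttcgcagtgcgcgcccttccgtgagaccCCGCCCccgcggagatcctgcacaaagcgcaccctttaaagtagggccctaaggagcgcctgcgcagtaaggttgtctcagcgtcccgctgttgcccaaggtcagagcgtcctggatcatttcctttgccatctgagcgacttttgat
A match is a string of letters and not a measured binding site.

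Junb itself was checked first. Its FPKM was 268 and 31.4 in wild type and JunB cKO unperturbed samples, 40.8 and 11.7 after hair plucking and 33.4 and 15.4 in wounds. It was lower in JunB cKO in each pair, by a log2 ratio of -3.05, -1.71 and -1.06. Here and below, the log2 ratio is log2((JunB cKO FPKM + 1)/(wild type FPKM + 1)), which understates the difference of genes with low FPKM, and FPKM values are given for wild type first and JunB cKO second. A gene was counted as higher or lower when it differed at least 1.5-fold on this scale, and other differences are given as values.

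The depth behind the values was read from single-exon receptor genes, whose FPKM steps show what 1 read is worth. For a gene with 1 kb of effective length, 1 FPKM stood for 16.9 reads in wild type and 4.97 in JunB cKO unperturbed samples, for 16.3 and 12.8 after hair plucking, and for about 43.5 and 39.7 in wounds. Estimated reads and 95% intervals below derive from these numbers, hold for the ratio without the added 1, and cover counting error only, not the spread between animals. Keratinocyte markers summed to 13585 and 14317 FPKM in the unperturbed pair, 9541 and 11153 after hair plucking and 4463 and 5391 in wounds, so that keratinocyte RNA was plentiful in every sample. In the unperturbed pair, muscle markers summed to 4.00 and 8.07 FPKM and endothelial markers to 0.686 and 4.63, so that these tissues were nearly absent. After hair plucking and in wounds, fibroblast markers summed to 6500 and 2828 FPKM and to 12594 and 15845, so that these samples held dermis.

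In the unperturbed pair, both arms lay below wild type in JunB cKO. The median log2 ratio was -0.56 for the fatty acid arm and -0.48 for the sterol arm. Of 34 members, 12 were at least 1.5-fold lower (35.3%, against 7.64% of 13222 genes with a mean FPKM of at least 1) and 0 were 1.5-fold higher (against 10%). The fatty acid arm gave 7 of the 12 (Acly, Acss2, Me1, Acacb, Fasn, Elovl5 and Elovl6) and the sterol arm 5 (Pmvk, Mvd, Idi1, Lss and Hsd17b7). The genes of this pair were shifted as a whole, with a median log2 ratio of -0.12 among genes with a mean FPKM of at least 1 and of -0.22 among those with at least 10, where the quartiles were -0.39 and -0.04. Relative to these medians, 6 members were 1.5-fold lower (against 4.24%) and 5 members were (against 2.82%), respectively, and 27 of 34 members lay below the median of the more abundant genes. The medians of both arms thus lay under the lower quartile of the abundant genes. Summed over the arm, FPKM went from 718 to 532 for the fatty acid arm and from 909 to 687 for the sterol arm, a ratio of 0.741 and 0.756. The counting interval of the ratio lay below 0 for 28 members and above 0 for 1, without regard to the shift of all genes.

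After hair plucking, the members spread widely to both sides. The median log2 ratio was -0.53 for the fatty acid arm and -0.34 for the sterol arm. Of 32 members, 13 were at least 1.5-fold lower (40.6%, against 24.0% of 15074 genes) and 5 were 1.5-fold higher (15.6%, against 26.0%). The lower members were 7 of the fatty acid arm and 6 of the sterol arm, and the higher ones were Elovl1, Fads1, Fads2, Dhcr7 and Srebf2. All genes spread widely in this pair as well: the quartiles of the abundant genes were -0.44 and 0.45 and their median 0.00. The fatty acid median lay under the lower quartile and the sterol median between the quartiles, but the sterol median was -0.53 over enzymes only and -0.47 without members at shared loci, both under the lower quartile. Summed FPKM went from 1286 to 841 for the fatty acid arm and from 905 to 661 for the sterol arm. The loci of 15 members are shared with other genes in this table, and without them 7 members were 1.5-fold lower and 2 were higher.

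In wounds, the arms parted. The median log2 ratio was 0.37 for the fatty acid arm and -0.16 for the sterol arm, a difference of -0.53 of the sterol from the fatty acid arm, compared with 0.07 in the unperturbed pair and 0.18 after hair plucking. The value after hair plucking was 0.025 over enzymes only and 0.021 without members at shared loci, whereas that in wounds was -0.64 in both settings. Of 32 members, 6 were at least 1.5-fold higher (18.8%, against 11.8% of 16333 genes), all 6 of the fatty acid arm (Acss2, Acacb, Fasn, Elovl6, Agpat2 and Lpin1), and 0 were 1.5-fold lower (against 9.7%). In the fatty acid arm 14 of 16 members had a higher value in JunB cKO (against 51.3% of all genes). In the sterol arm 12 of 16 had a lower value (against 48.7%). The quartiles of the abundant genes were -0.24 and 0.21, so that the fatty acid median lay above the upper quartile and the sterol median between the quartiles, although the sterol median was -0.28 without members at shared loci. Summed FPKM went from 494 to 724 for the fatty acid arm and from 483 to 421 for the sterol arm. The sterol values hold for the members counted here. Further genes of sterol synthesis, uptake and control, described below, had a median log2 ratio of 0.04 in wounds. The row that joins Fdps with Rusc1 and Gm43738 was at 0.40. Without Fasn, the median of the fatty acid arm in wounds was 0.27. Without the 14 of 32 members whose locus is shared with other genes in this table, only Fasn and Lpin1 remained 1.5-fold higher. As a share of the members left, this was not above the 11.8% of all genes. The plot of ratios by arm shows each member in the 3 conditions.

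**Figure D1:**
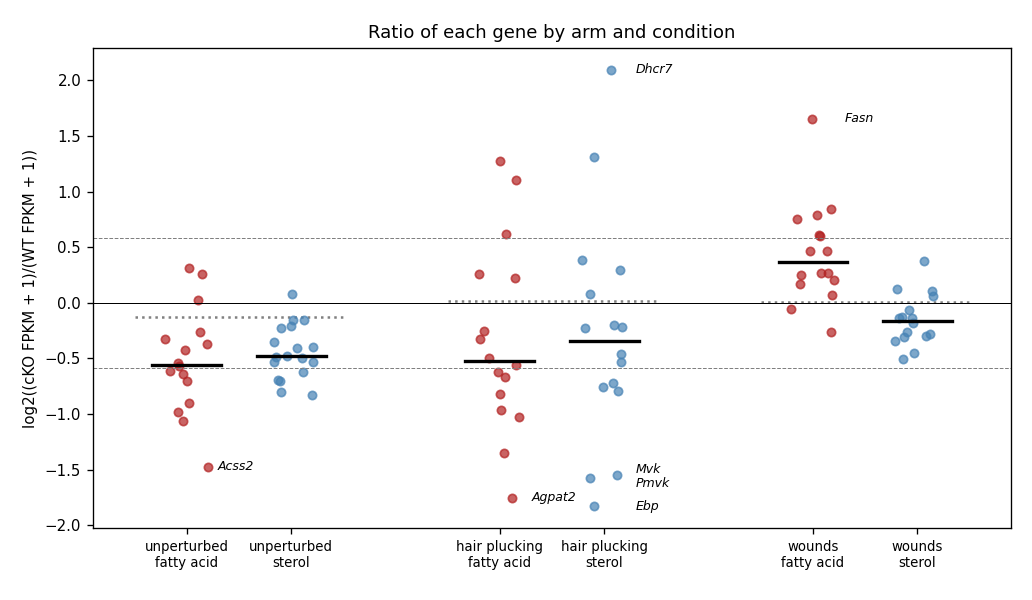
Log2 ratio of FPKM in JunB cKO over wild type (1 added to each value, vertical axis) for each member, by arm and condition. Points are genes spread sideways for display, black bars are medians of an arm, dotted lines the median of all genes with a mean FPKM of at least 1, and dashed lines the 1.5-fold limit. Both arms lie low in the unperturbed pair (medians -0.56 and -0.48), whereas in wounds the fatty acid arm lies at 0.37 and the sterol arm at -0.16.

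The genes that supply carbon and reducing power to fatty acid synthesis were considered first. Acly, which cleaves citrate to acetyl-CoA, was at 129.6 and 79.4 FPKM in the unperturbed pair, at 186 and 117 after hair plucking and at 82.4 and 92.6 in wounds, and it was 1.5-fold lower in the first 2 pairs (-0.70 and -0.67). Acss2, which makes acetyl-CoA from acetate, was at 19.1 and 6.24, then 22.3 and 10.4, then 9.72 and 15.3 FPKM in the same order of conditions, which is kept throughout. Its log2 ratio of -1.47 was the lowest of all members in the unperturbed pair, and it was lower again after hair plucking (-1.03) but higher in wounds (0.61). Malic enzyme Me1, which yields NADPH, was at 61.1 and 39.7 FPKM unperturbed, 60.5 and 72.5 after hair plucking and 28.8 and 40.1 in wounds. It was 1.5-fold lower in the unperturbed pair only, and its values in the other two pairs were above wild type.

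The enzymes that build palmitate followed. Acaca, the acetyl-CoA carboxylase that supplies malonyl-CoA for synthesis, was at 8.48 and 6.31 FPKM in the unperturbed pair, 35.8 and 17.8 after hair plucking and 42.7 and 49.2 in wounds. Acacb, the carboxylase whose malonyl-CoA restrains the entry of fatty acids into mitochondria, was at 10.8 and 4.94, then 30.7 and 19.6, then 6.49 and 11.7 FPKM. Acacb was 1.5-fold lower in the first 2 pairs and 1.5-fold higher in wounds, with log2 ratios of -0.99, -0.62 and 0.76, whereas Acaca passed the limit after hair plucking alone (-0.97). Fasn, the synthase that makes palmitate from acetyl-CoA and malonyl-CoA, was at 70.9 and 45.0 FPKM in the unperturbed pair, 65.1 and 51.7 after hair plucking and 43.2 and 138 in wounds. In wounds it was 3.20 times as high in JunB cKO as in wild type, a log2 ratio of 1.66 from an estimated 18508 and 54112 reads, with a counting interval of 1.65 to 1.70. This ratio was the highest of all 32 members in wounds, while the log2 ratio of Fasn was -0.64 in the unperturbed pair and -0.33 after hair plucking. The locus given to Fasn is chr11:120805846-120824547 in wounds, but begins at 120789202 in the unperturbed table and at 120789201 after hair plucking, where it also takes in Dus1l. Its transcription start lies at the upper end, beside the promoter printed above.

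Elongases lengthen palmitate and other fatty acids. Elovl6, which extends palmitate to stearate, was at 89.8 and 47.8 FPKM in the unperturbed pair, 470.1 and 184 after hair plucking and 70.3 and 122 in wounds. Its wild type value after hair plucking was the largest FPKM of any member in the 3 tables. The log2 ratio was -0.90 in the unperturbed pair and -1.35 after hair plucking but 0.79 in wounds. Elovl5, which extends polyunsaturated fatty acids, was at 56.5 and 26.6, then 182 and 124, then 61.8 and 85.5 FPKM and was 1.5-fold lower in the unperturbed pair only (-1.06). Elovl1 and Elovl7, which act on saturated very long chains and on long chains, kept apart from these. Elovl1 was at 163 and 196 FPKM unperturbed, at 88.1 and 135 after hair plucking and at 37.6 and 31.3 in wounds, so that its values were higher in JunB cKO in the first 2 pairs and lower in wounds, the reverse of Elovl5 and Elovl6, and it passed 1.5-fold after hair plucking (0.61). Elovl7 was at 20.1 and 15.8, then 38.3 and 26.9, then 14.3 and 13.7 FPKM and was the 1 gene of the fatty acid arm whose value was below wild type in all 3 pairs, without reaching 1.5-fold in any.

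The desaturases Fads1 and Fads2, which introduce double bonds into polyunsaturated fatty acids, were scarce outside wounds. Fads1 was at 1.92 and 1.97 FPKM in the unperturbed pair, 2.48 and 6.49 after hair plucking and 10.8 and 13.2 in wounds. Fads2 was at 0.543 and 0.921, then 0.422 and 2.43, then 12.5 and 13.2 FPKM. They were the 2 members with a higher value in JunB cKO in every pair, but they passed 1.5-fold after hair plucking only, with log2 ratios of 1.10 and 1.27. The reads behind Fads2 were few, an estimated 27 and 14 in the unperturbed pair and 20 and 92 after hair plucking, and the counting interval of its unperturbed ratio ran from -0.23 to 1.80.

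The genes that attach fatty acids to glycerol were below wild type in the first 2 pairs and above it in wounds. Gpam, which acylates glycerol 3-phosphate, was at 22.5 and 14.8 FPKM in the unperturbed pair, 35.2 and 19.5 after hair plucking, where it passed 1.5-fold (-0.82), and 21.2 and 25.7 in wounds. Agpat2, which adds the second acyl chain, was at 8.92 and 7.25, then 26.5 and 7.17, then 9.92 and 18.6 FPKM. Its log2 ratio after hair plucking, -1.75, was the lowest of the fatty acid arm, and in wounds it was 1.5-fold higher (0.85). In those 2 tables the locus of Agpat2 also covers Egfl7. Lpin1, a phosphatidate phosphatase, was at 4.76 and 2.96, then 4.76 and 3.84, then 6.74 and 10.7 FPKM and passed 1.5-fold in wounds, where it was higher (0.60).

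Srebf1, the transcription factor gene of this arm, was at 49.8 and 36.9 FPKM in the unperturbed pair, 36.7 and 43.1 after hair plucking and 35.4 and 42.3 in wounds. None of these log2 ratios (-0.42, 0.23 and 0.25) reached 1.5-fold. Several enzymes of the arm did in the same libraries, and a link between Srebf1 and these enzymes was not tested. The locus of Srebf1 also covers Rai1 in each condition.

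**Figure D2:**
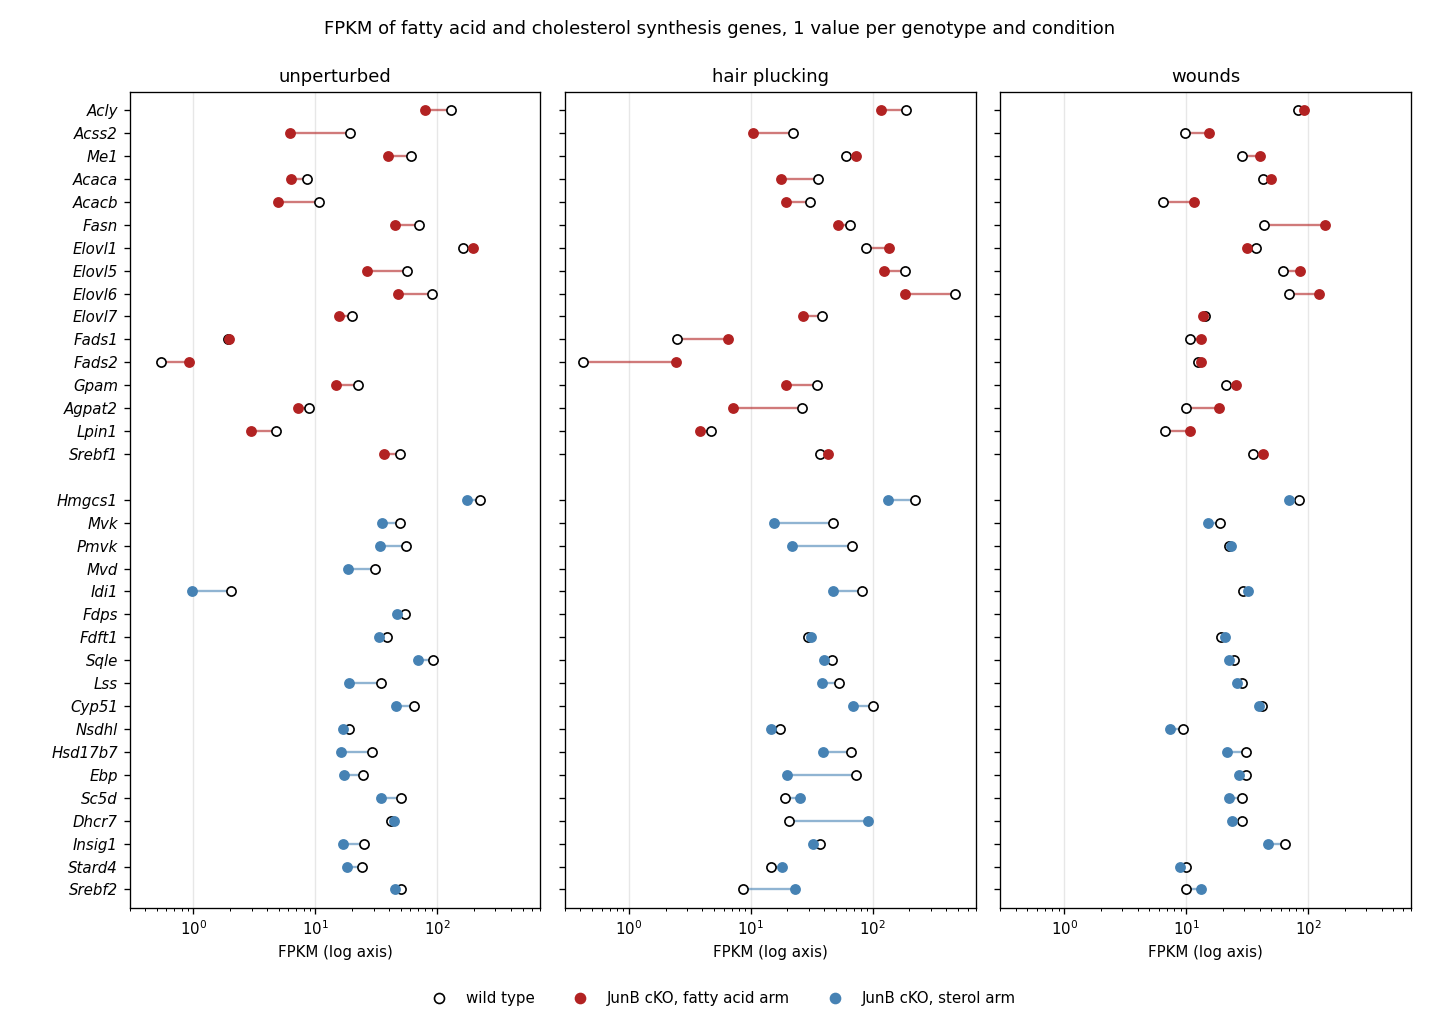
FPKM of each member (horizontal log axis) in wild type (open circles) and JunB cKO (filled circles, red for the fatty acid arm and blue for the sterol arm) in the unperturbed pair, after hair plucking and in wounds, 1 value per genotype. Mvd and Fdps have no point after hair plucking and in wounds. Fasn reaches 138 FPKM in JunB cKO wounds and Dhcr7 reaches 91.3 FPKM in JunB cKO skin after hair plucking.

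In the sterol arm, the genes of the mevalonate pathway come first. Hmgcs1, which makes HMG-CoA, was at 224 and 176 FPKM in the unperturbed pair, 222 and 135 after hair plucking and 85.0 and 69.6 in wounds, the highest level of the arm in every wild type sample. Mvk, mevalonate kinase, was at 49.5 and 35.3, then 47.5 and 15.6, then 19.0 and 15.2 FPKM. Pmvk, which adds the next phosphate, was at 55.3 and 33.7, then 67.0 and 21.8, then 22.5 and 23.5 FPKM. After hair plucking, wild type was 3.04 times JunB cKO for Mvk and 3.08 times for Pmvk, whereas Hmgcs1 was at 1.65 times. In wounds the 3 genes did not reach 1.5-fold, at log2 ratios of -0.28, -0.31 and 0.06.

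Mvd, which decarboxylates mevalonate diphosphate, was at 30.6 and 18.4 FPKM in the unperturbed pair, 1.5-fold lower in JunB cKO (-0.71), and was not analysed here in the other two pairs. Idi1, which isomerises the first isoprenoid unit, was at 2.04 and 0.978 FPKM in the unperturbed pair, 81.9 and 47.0 after hair plucking and 29.1 and 31.9 in wounds. Its unperturbed ratio rested on an estimated 97 and 14 reads, with a counting interval of -1.95 to -0.22. Fdps, which makes farnesyl diphosphate, was at 54.6 and 46.5 FPKM in the unperturbed pair. In the other two tables it lay in a row joined with Rusc1 and Gm43738 and was not counted. Idi1 was thus scarce in the unperturbed pair and abundant in the others, in tables that were normalised separately and use different annotations.

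The steps from farnesyl diphosphate to lanosterol differed little in wounds. Fdft1, squalene synthase, was at 38.7 and 33.4 FPKM in the unperturbed pair, 29.5 and 31.2 after hair plucking and 19.2 and 20.7 in wounds, with log2 ratios of -0.21, 0.08 and 0.11. Sqle, the squalene epoxidase, was at 91.5 and 69.2, then 46.5 and 39.6, then 24.5 and 22.4 FPKM. Lss, which closes the rings of lanosterol, was at 34.4 and 18.9, then 53.2 and 38.5, then 28.8 and 26.2 FPKM. Of these 3, Lss passed 1.5-fold, in the unperturbed pair, where its log2 ratio was -0.83, the lowest of the sterol arm on this scale. Without the added 1 FPKM the ratio of Idi1 was lower, at 0.479 times wild type against 0.549 for Lss.

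Lanosterol is turned into cholesterol by a series of demethylations and rearrangements of double bonds. Cyp51, the lanosterol demethylase, was at 64.7 and 45.7 FPKM in the unperturbed pair, 100.5 and 69.1 after hair plucking and 41.5 and 39.5 in wounds. Nsdhl was at 18.8 and 16.8, then 17.3 and 14.7, then 9.38 and 7.44 FPKM, and Hsd17b7, which acts with it in the removal of the methyl groups at carbon 4, was at 29.0 and 16.2, then 66.6 and 39.0, then 31.1 and 21.6 FPKM. These 3 genes were below wild type in every pair, and Hsd17b7 was 1.5-fold lower in the unperturbed pair (-0.80) and after hair plucking (-0.76) and had the lowest log2 ratio of all members in wounds (-0.51). The locus of Cyp51 also covers Akap9 after hair plucking and in wounds.

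Ebp, which shifts the double bond of the sterol ring, was at 24.5 and 17.2 FPKM in the unperturbed pair, 72.8 and 19.8 after hair plucking and 31.0 and 27.2 in wounds. After hair plucking its log2 ratio was -1.83, the lowest of all members on this scale. Sc5d, the next enzyme, was at 50.6 and 34.8, then 19.0 and 25.1, then 28.8 and 22.5 FPKM, and its value was above wild type after hair plucking. Dhcr7, which completes cholesterol from 7-dehydrocholesterol, was at 41.7 and 44.2, then 20.6 and 91.3, then 28.9 and 23.9 FPKM. After hair plucking it was 4.43 times as high in JunB cKO as in wild type, a log2 ratio of 2.09 from an estimated 877 and 3068 reads and with a counting interval of 2.04 to 2.26. Ebp and Dhcr7, which lie 2 steps apart in the pathway, thus differed in opposite directions in the same libraries. Without the added 1 FPKM, Fads2 stood above Dhcr7, at 5.77 times wild type, and Agpat2 slightly below Ebp, at 0.270 and 0.272 times. In the unperturbed pair and in wounds, Dhcr7 had log2 ratios of 0.08 and -0.27. Dhcr7 lies at chr7:143823145-143848410 in the hair plucking and wound tables, and no other gene shares this locus there.

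The regulators of the sterol arm were Srebf2, Insig1 and Stard4. Srebf2 was at 50.2 and 45.1 FPKM in the unperturbed pair, 8.66 and 23.0 after hair plucking and 9.95 and 13.2 in wounds. It was 1.5-fold higher after hair plucking (1.31), in libraries where Mvk, Pmvk, Hmgcs1, Idi1, Hsd17b7 and Ebp were 1.5-fold lower. Insig1, which retains the SREBP proteins, was at 24.8 and 16.9, then 37.1 and 32.3, then 64.5 and 46.8 FPKM and was below wild type in each pair. Stard4, a carrier of cholesterol, was at 24.3 and 18.1, then 14.6 and 18.1, then 9.96 and 8.96 FPKM, with log2 ratios of -0.41, 0.29 and -0.14.

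Across the 3 conditions the arms differed in their pattern. Of the 32 genes with a value in all 3 pairs, 16 were below wild type in the unperturbed pair and above it in wounds. These were 12 of 16 genes of the fatty acid arm (Acly, Acss2, Me1, Acaca, Acacb, Fasn, Elovl5, Elovl6, Gpam, Agpat2, Lpin1 and Srebf1) and 4 of 16 of the sterol arm (Pmvk, Idi1, Fdft1 and Srebf2). Values below wild type in all 3 pairs were found for 10 genes, 1 of the fatty acid arm (Elovl7) and 9 of the sterol arm (Hmgcs1, Mvk, Sqle, Lss, Cyp51, Nsdhl, Hsd17b7, Ebp and Insig1). These are counts of signs, many of small differences, and no test of the difference between the arms was possible. Of all genes with a mean FPKM of at least 1, 62.8% were below wild type in the unperturbed pair and 49.0% after hair plucking. In wounds 48.7% were below and 51.3% above. The shares of all genes with the same patterns across pairs were not computed. The conditions also differ in tissue, and condition and tissue cannot be told apart. The plot of the unperturbed pair against wounds shows both groups.

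**Figure D3:**
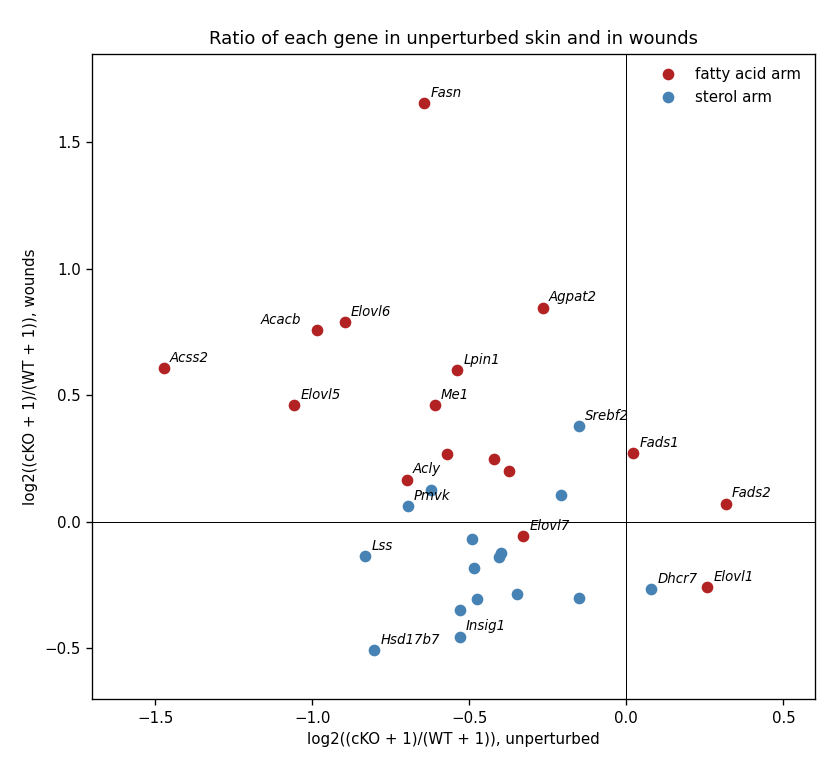
Log2 ratio of FPKM in JunB cKO over wild type (1 added to each value) in the unperturbed pair (horizontal axis) and in wounds (vertical axis) for the 32 members with a value in both, red for the fatty acid arm and blue for the sterol arm. The upper left part, below wild type unperturbed and above it in wounds, holds 12 genes of the fatty acid arm and 4 of the sterol arm.

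Other genes of both pathways were taken from 2 further lists. Of 34 further genes of fatty acid and glycerolipid synthesis found in each table, 23 were below wild type in the unperturbed pair (10 of them at least 1.5-fold), 19 after hair plucking (9 at least 1.5-fold), and 30 were above it in wounds (7 at least 1.5-fold). In the opposite directions, 2, 9 and 1 genes of this list passed 1.5-fold in the same order of conditions. After hair plucking, as many of its genes were thus 1.5-fold higher as lower, and its median log2 ratio was -0.098. Of all genes with a mean FPKM of at least 1, 62.8% and 49.0% were below in the first 2 pairs and 51.3% above in wounds. Past 1.5-fold in these directions were 7.64%, 24.0% and 11.8% of them. The share below in the unperturbed pair was 78.6% among genes with a mean of at least 10. Scd1, the desaturase that makes oleate and palmitoleate, was at 392 and 222 FPKM in the unperturbed pair, 826 and 592 after hair plucking and 389.9 and 1009 in wounds. Scd1 thus lay on the same side of wild type as Fasn and Elovl6 in each pair, with log2 ratios of -0.82, -0.48 and 1.37. Its paralogue Scd3 did so too, at -1.85, -0.12 and 1.01. The paralogue Scd2, named after its values were seen, was above wild type in each pair, at 0.13, 0.83 and 0.03. Among genes of this list with a mean FPKM of at least 10, the lowest ratios belonged to Scd3 in the unperturbed pair (-1.85) and to Lpin2 after hair plucking (-1.39) and in wounds (-0.70). The highest ratios among these genes belonged to Agpat5 (0.50), to Aacs, which activates acetoacetate (1.47), and to Thrsp, a lipogenic regulator (1.60).

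Of the further genes of sterol synthesis, uptake and control, 20 of 24 were below wild type in the unperturbed pair (5 at least 1.5-fold). After hair plucking 12 of 23 were below wild type (7 at least 1.5-fold). In wounds 13 of 23 were above it (1 at least 1.5-fold). Past 1.5-fold in the opposite directions were 2, 5 and 2 genes of this list. The shares of all genes given above were 62.8% and 49.0% below in the first 2 pairs and 51.3% above in wounds. Among the abundant genes 78.6% were below in the unperturbed pair. Among genes of this list with a mean FPKM of at least 10, the ratios after hair plucking ran from Insig2 (-2.03) to Scap, the escort of the SREBP proteins (2.19), and Insig2 was also the lowest of these genes in wounds (-0.71). Acat2, an acetoacetyl-CoA thiolase, was the highest of them in the unperturbed pair at -0.15.

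Markers of lipid-rich cells differed between the same samples. In bulk samples, fewer cells of a type and less RNA per cell cannot be told apart. Sebocyte markers (12 genes, led by Mgst1) summed to 288 and 129.9 FPKM in the unperturbed pair, 989.7 and 531 after hair plucking and 425 and 532 in wounds. Of these, 11 were below wild type in the unperturbed pair and 12 after hair plucking, and 11 were above it in wounds. The shares of all genes with a mean FPKM of at least 1 were 62.8%, 49.0% and 51.3% in the same order. The median log2 ratios of the sebocyte list were -1.03, -0.88 and 0.47. The sebocyte list shares no gene with the members but is made up mostly of lipid enzymes. Among them, Scd3, Elovl3 and Soat1 also belong to the further pathway lists above. It is therefore not a readout of cell type apart from lipid synthesis. Adipocyte markers (16 genes) summed to 143 and 102 FPKM, 403 and 180.7, and 1834 and 2593. They were led by Fabp4, Cebpa and Cfd after hair plucking and by Car3, Fabp4 and Cfd in wounds. Their median log2 ratios were -0.06, -0.92 and 0.60. In the unperturbed pair most of this sum was Cebpa, which keratinocytes also express, and Plin1 and Lep, named after their values were seen, were listed at 0 in wild type. The signs of the sebocyte medians thus matched those of the fatty acid arm in every pair. Those of the adipocyte list did so after hair plucking and in wounds, whereas in the unperturbed pair 7 of its 16 genes were above wild type and 9 below, and its median lay above that of all genes. Their part in the result was not tested.

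Markers of the dermis differed mostly after hair plucking. Fibroblast markers were below wild type for 10 of 10 genes (median -0.89), muscle markers went from 255 to 34.6 FPKM in sum (median -2.04, 9 of 9 below) and leukocyte markers from 437 to 193 (median -1.08, 7 of 10 below). Endothelial markers were below wild type for 5 of 8 genes, with a median of -0.28. This median lay between the quartiles of the abundant genes, -0.44 and 0.45. Among all genes with a mean FPKM of at least 1, 49.0% were below wild type after hair plucking. Keratinocyte markers had a median of 0.00 in that pair. In wounds the medians of the fibroblast, muscle and keratinocyte lists were 0.06, 0.01 and 0.01. Endothelial and leukocyte markers in wounds had medians of 0.30 and 0.26. In the unperturbed pair, fibroblast markers summed to 137 and 114.9 FPKM, led by Postn, and leukocyte markers to 136 and 134, led by Cd74. Their medians of 0.28 and 0.38 rest on genes of low FPKM, and receptor genes had a median of 0.543 FPKM in that JunB cKO sample and of 0 in wild type. In the same pair the keratinocyte list had -0.23, close to the shift of all abundant genes. The part of these differences in the results after hair plucking was not tested.

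**Figure D4:**
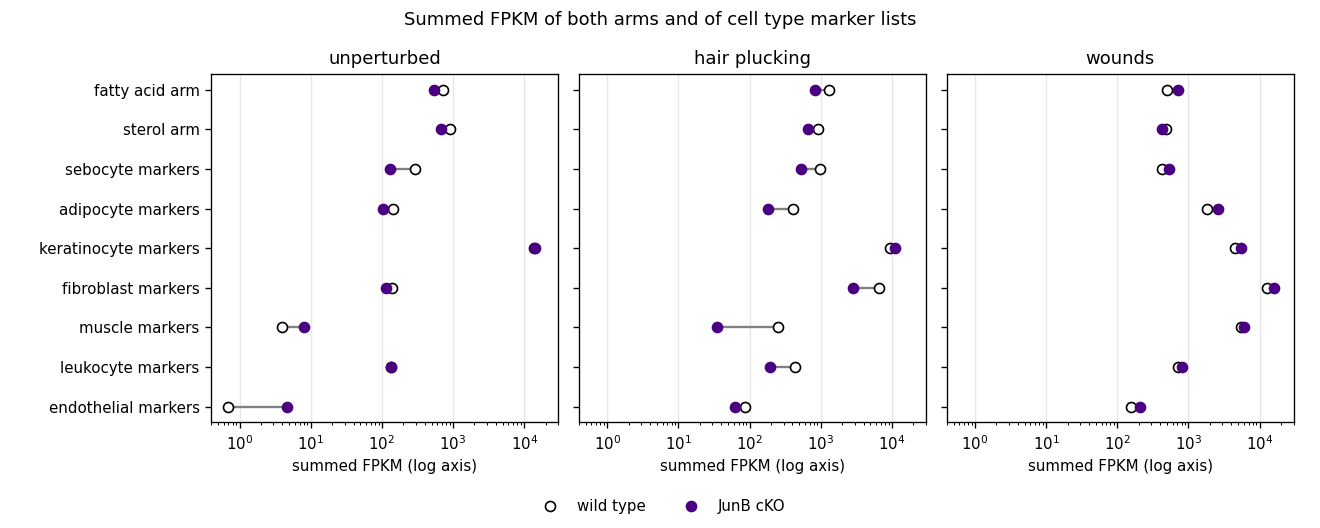
Summed FPKM (horizontal log axis) of both arms and of 7 lists of cell type markers in wild type (open circles) and JunB cKO (filled circles) in each condition. Sebocyte markers go from 288 to 129.9 in the unperturbed pair and from 425 to 532 in wounds, the directions of the fatty acid arm, and muscle markers go from 255 to 34.6 after hair plucking.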

How the data were processed

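The deposited tables hold FPKM values per gene locus, calculated by the authors. According to the methods of the paper, pooled RNA was depleted of rRNA, sequenced as stranded single-end reads of 75 bases, mapped to GRCm38 with TopHat or HISAT2, assembled with Cufflinks and compared with Cuffdiff. The build mm10 is named in the submitters' processing notes. The tables were normalised separately, and which table is hair plucking and which is wounds was taken from their names. The columns of the authors' own comparison, which hold log2 fold changes, test statistics, p-values, q-values and calls, were not used.

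Members were matched by symbol, and a symbol with more than 1 locus was represented by the locus whose FPKM values added up highest. Log2 ratios were computed after adding 1 FPKM, without a test, since each table has 1 value per genotype. The background is all single-symbol genes with a mean FPKM of at least 1. Depth was estimated from single-exon receptor genes with loci of 700 to 1200 bases: FPKM times effective length (for a mean fragment of 200 bases, as Cufflinks assumes by default for single-end reads) fell within 0.05 of whole multiples for 100% of receptor loci with up to 20 reads in the unperturbed and hair plucking libraries (3 and 14 such loci after hair plucking) and for 81.1% and 83.3% in wounds, where 2 libraries are joined. Read numbers use transcript lengths of GENCODE release M21. Alternatives were other pseudocounts, centring on all genes, a minimum of 10 FPKM, the sum of all loci, subtraction of the receptor median, enzymes only and, added after seeing the data, members that share no locus. The calculation was run on values changed by known folds without added noise, which checks the arithmetic of ratios and calls only.

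The members and lists were chosen with earlier results of these data known. All members and Junb are named. From the other pathway lists, the extremes with a mean FPKM of at least 10 are named, plus Scd1 and its paralogues Scd2 and Scd3. From marker lists, at most the 3 genes with the highest mean are named, unless stated otherwise. Some genes that the rule names are not reported here. Loci shared with other genes concern 8, 15 and 14 members in the 3 tables. Software was Python 3.11.15, numpy 2.4.6, pandas 2.3.3 and, for the figures, matplotlib 3.10.9.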

Additional observations from a re-analysis of the deposited data

Results flagged for a closer look

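For 5 genes of the fatty acid arm, JunB cKO and wild type differed at least 1.5-fold in opposite directions in 2 conditions, always with the higher value of JunB cKO in wounds. These differences between conditions were not tested, since each condition has 1 value per genotype. The conditions also differed in tissue. Adipocyte markers summed to 143 and 102 FPKM in the unperturbed pair, 403 and 180.7 after hair plucking and 1834 and 2593 in wounds. Condition and tissue therefore cannot be told apart in the values below. The log2 ratio in wounds exceeded that in the unperturbed pair by 2.30 for Fasn, 2.08 for Acss2, 1.74 for Acacb and 1.69 for Elovl6. It exceeded that after hair plucking by 2.60 for Agpat2, 2.14 for Elovl6, 1.63 for Acss2 and 1.38 for Acacb. In the tables for hair plucking and wounds, the loci of Acss2, Acacb, Elovl6 and Agpat2 are shared with other genes, which is not the case for Fasn in wounds. In the unperturbed pair, the loci of Fasn and Acss2 are shared, whereas those of Acacb and Elovl6 are not.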

How the results depend on the processing

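The medians of both arms, their difference and the counts of members past 1.5-fold were recomputed under 9 other settings. Of 135 values, 116 stayed within 1.5 times the reported value, 19 moved by more and 0 reversed. Part of the 116 could not move, so this count overstates how stable the results are. Centring cannot change the difference between the arms. The receptor median was 0 after hair plucking and in wounds, so that its subtraction changed nothing there. Among the members, only Fasn after hair plucking had a second locus to sum. In the unperturbed pair, 1 member instead of 0 was 1.5-fold higher with a pseudocount of 0.1 or 0.01. After centring on genes with a mean FPKM of at least 1 and of at least 10, 6 and 5 members instead of 12 were lower, and the latter gave medians of -0.33 for the fatty acid and -0.26 for the sterol arm. The small difference of the sterol from the fatty acid arm in that pair was 0.12 with both other pseudocounts and with the receptor median subtracted, and 0.15 among members with a mean of at least 10 FPKM. After hair plucking, that last setting gave 3 higher members instead of 5 and a difference of 0.28, and enzymes only gave a sterol median of -0.53 and a difference of 0.025. Without members that share their locus with other genes, a setting chosen after seeing the data, the difference after hair plucking was 0.021, 2 members were higher and 7 lower instead of 5 and 13, and in wounds 2 were higher instead of 6 and the sterol median was -0.28. That setting lowers counts in part by its smaller number of members. No paired analysis was possible because the wound table joins the 2 libraries of a genotype into 1 value, and the other tables rest on 1 library per genotype, so that leaving out a replicate could not be run either. Unperturbed JunB cKO values rest on fewer reads per FPKM than wild type, and receptor genes had a median of 0.543 FPKM there and of 0 in wild type, which limits all genes of low FPKM in that pair, Fads2 and Idi1 among the members.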

Other observations

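The row that joins Fdps with Rusc1 and Gm43738 was at 109.8 FPKM in wild type and 79.7 FPKM in JunB cKO after hair plucking, and at 69.0 and 91.7 FPKM in wounds. A second row named Fasn after hair plucking held 1.68 FPKM in wild type and 8.40 FPKM in JunB cKO, beside 65.1 and 51.7 FPKM in the row reported.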
